A study of Mus musculus with 14 samples.

Results

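The effect of acetate on gene expression was measured in mouse CD4+ T cells cultured under conditions that favour regulatory T cells (Treg cultures). The arrays were chosen by their titles, which name a Treg culture and either the control or the acetate (C2) condition, and gave 2 control and 2 acetate arrays, 4 of the 14 arrays of the series. The other 10 arrays hold Th17 cultures (3 control, 3 acetate) and Th1 cultures (2 control, 2 acetate). CD4+ T cells came from spleen, peripheral lymph nodes and mesenteric lymph nodes, and total RNA was hybridised to Affymetrix Mouse 430 2.0 arrays, which carry 45101 probe sets. All Treg cultures received human IL-2 at 100 U/ml and human TGF-beta1 at 5 ng/ml for 5 days, and the treated ones in addition the test compound at 10 mM. The treatment field of the treated Treg samples reads acetone, whereas the series' design text reads sodium acetate for every subset and gives 6 to 7 days of culture. These samples are called acetate samples here, following their titles and the design text. The Th17 cultures received IL-2 and TGF-beta1 together with IL-6, IL-1b, IL-23, IL-21, TNF-a and antibodies against IL-4 and IFN-gamma, and the Th1 cultures IL-2, IL-12 and anti-IL-4 without TGF-beta1. The sources used here state neither strain, age nor sex of the mice, and nothing in them says that replicate arrays stem from separate mice or separately grown cells. The p-values therefore set each difference only against the scatter among these arrays, pooled over the 6 groups of the series, and that scatter may be technical.

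Regulatory T cells restrain immune responses and are defined by the transcription factor Foxp3. In culture, TGF-beta together with IL-2 induces Foxp3 in activated CD4+ T cells, and the resulting population also contains cells that do not express it. Acetate, which intestinal microbes release when they ferment fibre, can signal through the G protein coupled receptor Ffar2, it can be joined to coenzyme A by the acetyl-CoA synthetases Acss1 in mitochondria and Acss2 in cytosol and nucleus, and the acetyl-CoA formed feeds lipid synthesis and the acetylation of histones and other proteins.

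Values called signals are the deposited intensities of 1 probe set per gene, listed in the order control replicate 1, control replicate 2, acetate replicate 1 and acetate replicate 2 where 4 are given. Log2 differences are acetate minus control, from quantile-normalized log2(signal + 3), with their standard error (SE) from limma's fit over all 14 arrays. Adjusted p-values are limma's, Benjamini-Hochberg adjusted over the 10916 genes tested, and a gene is said to have risen or fallen where this value lay under 0.05. A gene described as holding without any single array kept that call in each of the 14 fits that left out 1 array.

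The labelled identity of the cultures was checked first. T cell genes were bright on all 4 arrays, with Cd3d at 4954, 4546, 3341 and 3651 and Cd4 at 492, 460, 225 and 316. Foxp3 was at 295 and 312 in the control arrays, against means of 116 (SD 52.6, n = 3) in Th17 control and 10.9 (SD 1.60, n = 2) in Th1 control arrays. Il2ra, Ctla4, Ikzf2, Nrp1 and Tnfrsf18, further genes of Treg cells, were all measured above the filter. That filter uses the mean over all 14 arrays, so passing it does not bear on the identity of the Treg cultures. Some defining markers of other cells were near the lowest signals of the array and others were not. The B cell gene Ms4a1 lay between 0.532 and 5.55, the monocyte genes Lyz2 and Cd14 between 5.21 and 11.9 and between 1.16 and 7.56, and the NK cell receptor gene Ncr1 between 2.67 and 8.07. Klrd1, a receptor gene of NK and CD8 T cells, was at 1580, 919, 613 and 746, Eomes, a factor of the same cells, at 203, 175, 76.4 and 89.2, and Cd8a at 192, 109, 127 and 120. Of the B cell genes Ighm was at 2180, 2110, 742 and 1390 and Cd79b at 85.5, 59.3, 54.9 and 63.9. Their part in the results was not tested.

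Trimmed means of the deposited signals were 69.7, 55.1, 57.1 and 56.2 on the Treg arrays, against 53.2 to 116 over the series. Across genes the control arrays correlated at r = 0.978 and the acetate arrays at 0.974, and control with acetate arrays at 0.917 to 0.931. Genes are not independent replicates. The 3-prime control of 18S ribosomal RNA was at 3134 in control replicate 1 and at 581.6, 506.5 and 816.3 in the others. The 3-prime to 5-prime ratio of the Gapdh control probe sets was 1.22 and 1.23 in the control and 1.02 and 1.03 in the acetate arrays, and that of actin 1.31 to 1.42 over the 4. The part of these differences in the results was not tested.

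Between the acetate and control Treg arrays 1355 of the 10916 genes tested (12.4%) differed. Of these, 743 rose (6.81% of genes tested) and 612 fell (5.61%). The genes that rose did so by a median log2 difference of 1.24, 133 of them more than 4-fold and 27 more than 8-fold. Those that fell had a median of -1.09, with 61 beyond 4-fold and 9 beyond 8-fold. The median over all genes tested was 0.02. Leaving out control replicate 1 reduced the count of called genes to 480, control replicate 2 to 472, acetate replicate 1 to 351 and acetate replicate 2 to 610. On the signals as deposited, which carry the differences in array brightness, 550 genes were called, 252 higher and 298 lower. Both acetate arrays lay above both control arrays in 34.2% of all genes tested and below both in 30.5%, together 64.7%, so a lack of overlap between groups of 2 arrays is common here. The counts of list members given below stand beside the shares of all genes tested that rose (6.81%) and fell (5.61%). The lists were chosen with earlier results of these data known, so a count above these shares is not independent support. Where 4 counts follow "with single Treg arrays left out", they are those without control replicate 1, control replicate 2, acetate replicate 1 and acetate replicate 2, in that order.

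The cytokine gene Il24, a member of the IL-10 family, had the largest rise of all genes tested. Its signals were 20.8 and 12.1 in the control arrays and 1914 and 945 in the acetate arrays. The log2 difference was 6.30 ± 0.44 (SE, adjusted p = 2.20e-05), and it held without any single array and under every other setting tried. In the other cultures Il24 was already bright without acetate, at 857 (SD 183, n = 3) in Th17 and 501 (SD 55.7, n = 2) in Th1 control arrays. The Treg control arrays were therefore the low group of the series, and the Treg acetate mean of 1429 (SD 685, n = 2) lay between the Th17 control mean and the Th17 acetate mean of 2334 (SD 301, n = 3).

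**Figure D1:**
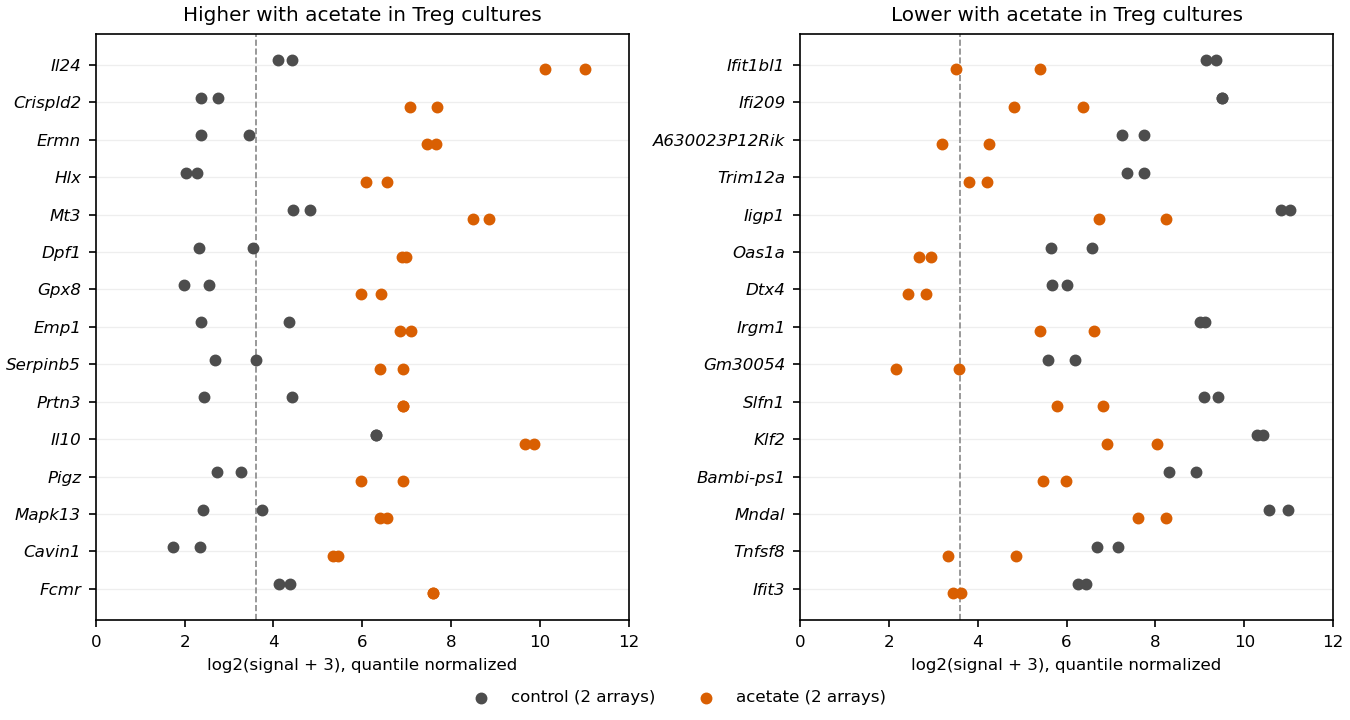
Quantile-normalized log2(signal + 3) on each Treg array for the 15 genes that rose most (left) and the 15 that fell most (right), with control arrays in grey, acetate arrays in orange and the filter on low signals (3.60) as a dashed line. The 2 acetate arrays lie beyond the 2 control arrays for every gene drawn, which the rule for choosing them required. Il24 and Il10 start above the filter, whereas most other genes on the left start near or below it.

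After Il24, the genes that rose most were Crispld2, Ermn, Hlx, Mt3, Dpf1, Gpx8, Emp1, Serpinb5 and Prtn3, with log2 differences from 4.82 to 3.50, followed by Il10, Pigz, Mapk13, Cavin1 and Fcmr, from 3.45 to 3.33. Hlx encodes a homeobox factor known from Th1 cells, and its signals were 1.18, 1.46, 54.7 and 75.9. Most of these genes were below the filter level of 9.10 in the control arrays, as were 85 of the 743 genes that rose, so the size of their change depends on the pseudocount: that of Hlx was 5.02 with a pseudocount of 1 and 2.85 with one at the 50th percentile of all signals. Fcmr, the gene of the IgM Fc receptor, started above that level, at 16.3, 15.4, 161 and 157 (log2 difference 3.33 ± 0.36, adjusted p = 3.74e-04). The filter uses the mean over all 14 arrays, so a gene low elsewhere could be tested because of its Treg acetate arrays. Gpx8 (1.08, 2.38, 69.3 and 50.4) was close to that limit and no longer reached the filter with a pseudocount of 1. The rank and adjusted p of such genes are not independent of the filter. Ermn, Hlx, Mt3, Dpf1, Emp1, Prtn3, Cavin1 and Fcmr held without any single array. Other, dimmer probe sets of these genes gave 3.29 for Ermn, 1.49 for Dpf1, 0.47 and 0.36 for Cavin1 and -0.44 for Emp1. As the mean of its probe sets Emp1 passed narrowly (1.58, adjusted p = 0.0474). Crispld2 and Gpx8 did not pass without control replicate 1 or acetate replicate 1 (adjusted p up to 0.0765 and 0.0759). Pigz failed without the same arrays (up to 0.101) and as the mean of its probe sets (0.0744), Mapk13 without control replicate 1 (0.0644), and Serpinb5 without control replicate 2, acetate replicate 1 or acetate replicate 2 (up to 0.109) and as the mean of its probe sets (0.0930).

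The genes that fell most were led by interferon-inducible genes. Ifit1bl1, a member of the Ifit family of antiviral proteins, was at 566, 522, 7.66 and 33.8, a log2 difference of -4.79 ± 0.58 (adjusted p = 5.30e-04). Ifi209 and Mndal, of the family of interferon-inducible DNA sensors, had differences of -3.90 and -2.84, and Trim12a one of -3.54. The immunity-related GTPase genes Iigp1 and Irgm1 (-3.44 and -3.05), Oas1a (-3.29), Ifit3 (-2.82) and Slfn1 (-2.95) were also among the 15, as were Klf2 (-2.88), the TNF family ligand gene Tnfsf8 (-2.82), Bambi-ps1 (-2.88), the ubiquitin ligase gene Dtx4 (-3.20) and the little described A630023P12Rik (-3.77) and Gm30054 (-3.02). Ifit1bl1, Ifi209, A630023P12Rik, Trim12a, Irgm1, Gm30054, Slfn1, Bambi-ps1 and Tnfsf8 held without any single array. Mndal and Ifit3 failed without each of the 4 Treg arrays in turn (adjusted p up to 0.175 and 0.0841). Iigp1 failed without control replicate 2 or acetate replicate 1 (0.0552 and 0.0922), Oas1a without control replicate 1 (0.0512), and Dtx4 and Klf2 without acetate replicate 1 (0.0506 and 0.0740). Dtx4 also failed as the mean of its probe sets (0.0560). The filter uses the mean over all 14 arrays, so a gene low elsewhere could be tested because of its Treg control arrays. Ifit1bl1, Ifit3 and Dtx4 were low on most other arrays. The rank and adjusted p of such genes are not independent of the filter.

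Foxp3, the factor that defines Treg cells, was lower in the acetate cultures. Its signals were 295 and 312 in the control arrays and 43.7 and 55.4 in the acetate arrays, so the groups did not overlap. The log2 difference was -2.43 ± 0.36 (adjusted p = 0.00158), and it held without any single array and under every other setting tried. In these bulk cultures fewer Foxp3-expressing cells and less Foxp3 RNA per cell cannot be told apart. The array carries 1 probe set for Foxp3. In Th17 cultures, which also contain TGF-beta1, Foxp3 fell from a mean of 116 to 15.1 (log2 difference -2.36, adjusted p = 3.01e-04), and in Th1 cultures, where it was at 10.9 and 11.8, the difference was -0.03. By limma's test of the difference, the Treg effect did not differ detectably from that in Th17 cultures (adjusted p = 0.983). Against Th1 cultures the test narrowly missed the threshold (adjusted p = 0.0575). Foxp3 was near the filter level of 9.10 in the Th1 control arrays and had little room to fall there.

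**Figure D2:**
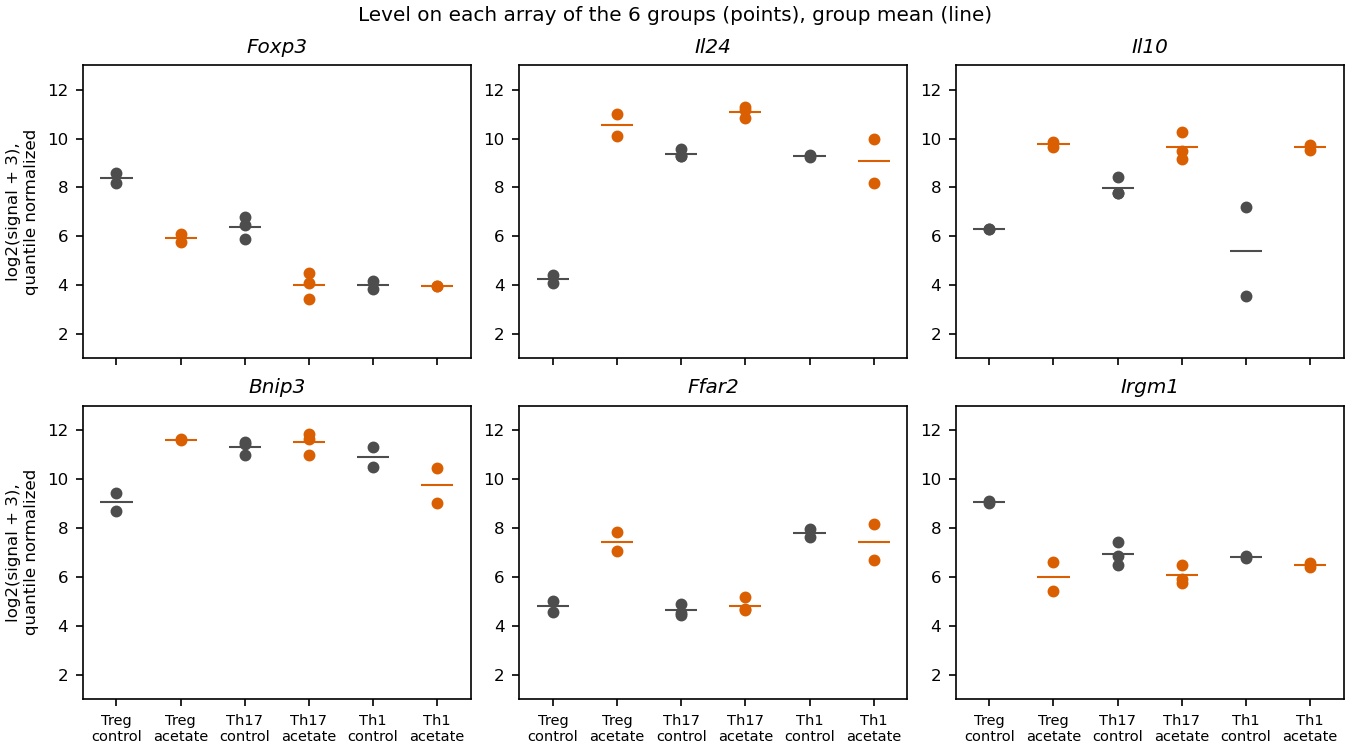
Quantile-normalized log2(signal + 3) of Foxp3, Il24, Il10, Bnip3, Ffar2 and Irgm1 on each array of the 6 groups, with the group mean as a line (2 arrays a group for Treg and Th1, 3 for Th17). Il24, Bnip3 and Ffar2 are low in the Treg control arrays and high in the Treg acetate arrays, and Foxp3 and Irgm1 are high in the Treg control arrays and low in the Treg acetate arrays.

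The other genes of Treg cells did not move in 1 direction. Of 35 Treg identity and surface genes tested, 5 rose and 4 fell, beside 6.81% and 5.61% of all genes, with a median log2 difference of 0.04 beside 0.02 over all genes. Nrp1, a surface receptor of Treg cells (90.7, 109, 24.9 and 35.5), Cbfb, the partner of Runx factors (753, 533, 257 and 250), and Ikzf2, the gene of the factor Helios (558, 515, 224 and 275), fell with Foxp3, by log2 differences of -1.48, -1.24 and -1.01. The genes that rose were Il10 and Prdm1, which encodes the factor Blimp-1, Entpd1, the ectonucleotidase CD39, Il2ra, the IL-2 receptor alpha chain, and the chemokine receptor gene Ccr4 (24.9, 10.3, 64.8 and 53.0; log2 difference 1.92, adjusted p = 0.00159). Ctla4 (0.16) and Tnfrsf18 (-0.11), both abundant, did not pass, nor did Itgae (-2.41, adjusted p = 0.0614). Foxp3, Cbfb and Ccr4 held without any single array. Nrp1 failed without control replicate 2 or acetate replicate 1 (adjusted p up to 0.107), Il2ra without the same arrays (up to 0.0792) and when its probe sets were averaged (0.322), and Prdm1, Entpd1 and Ikzf2 without each of the 4 Treg arrays in turn (up to 0.154, 0.132 and 0.283). Prdm1 and Entpd1 failed on the signals as deposited as well (0.151 and 0.129), and Entpd1 as the mean of its probe sets (0.307). Ikzf2 also failed without any of the Th17 control replicates 1, 2 and 3, and under most other settings. Without control replicate 1, control replicate 2, acetate replicate 1 and acetate replicate 2 the list counted 2, 1, 1 and 2 rises and 3, 2, 2 and 4 falls.

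Il10, the suppressive cytokine that some Treg cells secrete, was at 84.4 and 66.1 in the control and at 718 and 792 in the acetate arrays. The log2 difference was 3.45 ± 0.78 (adjusted p = 0.0124). The SE pools the spread of all groups, and the Th1 control arrays of Il10 differed widely (120 and 7.68). Without either of those 2 arrays the adjusted p was 3.03e-04 and 2.84e-04, and with the 4 Treg arrays fitted alone 3.22e-06. When any 1 of the 4 Treg arrays was left out, it was 0.0725 to 0.0779 at a difference of 3.35 to 3.55. In Th1 cultures Il10 rose by 4.26 (adjusted p = 0.0148), and in Th17 cultures its difference was 1.65 (adjusted p = 0.0842).

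Of 14 transcription factors known to act on Il10, 3 rose and 0 fell, with 1, 1, 2 and 1 rises with single Treg arrays left out. Nfil3, which encodes a bZIP repressor and clock output factor, went from 195 and 97.4 to 884 and 609 (log2 difference 2.54 ± 0.36, adjusted p = 0.00122) and held without any single array. The aryl hydrocarbon receptor gene Ahr (53.0, 49.6, 91.3 and 190; 1.57) failed without control replicate 1, control replicate 2 or acetate replicate 2 (adjusted p up to 0.156) and on the signals as deposited (0.0734). Prdm1 (87.8, 49.9, 135 and 156; 1.33) is the third. Maf, another Il10 activator, had a difference of 1.60 and did not pass (adjusted p = 0.0564).

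Among 27 secreted cytokine genes tested, 5 rose and 1 fell, with 2, 3, 2 and 2 rises with single Treg arrays left out. Besides Il24 and Il10 these were Lta, the gene of lymphotoxin alpha (443, 238, 2916 and 1196; 2.52 ± 0.35, adjusted p = 0.00112), Il3 (17.4, 22.7, 250 and 99.6; 3.05), and Il17a, which stayed at low signals (1.56, 6.51, 9.49 and 14.01; 1.22). Il16, a chemoattractant for CD4+ cells, fell from 849 and 722 to 194 and 270. Il24 and Lta held without any single array. Il3 failed without each of the 4 Treg arrays in turn (adjusted p up to 0.226) and with a pseudocount of 1 (0.0533). Il17a failed without control replicate 1, acetate replicate 1 or acetate replicate 2 (up to 0.385), without each Th17 control array (up to 0.0634), with the 4 Treg arrays alone (0.192), on the signals as deposited (0.103) and under 6 further settings (0.0532 to 0.111). Il16 failed without acetate replicate 1 (0.0535) and as the mean of its probe sets (0.249).

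Of 19 Th1 markers tested 1 rose (Hlx) and 1 fell (Cxcr6), of 12 Th17 markers 2 rose (Ahr and Il17a) and 1 fell (Ccr6), and of 9 Th2 markers 3 rose and 1 fell. The 3 Th2 markers that rose were Il24, Il10 and Ccr4, described above, and the one that fell was Stat6, which transmits IL-4 signals (364, 256, 149 and 164; -0.83, adjusted p = 0.00525). Stat6 failed without control replicate 1 or acetate replicate 1 (adjusted p up to 0.0680) and on the signals as deposited (0.0738). Ccr6, a chemokine receptor gene (111, 89.4, 38.7 and 13.5; -1.84), failed without control replicate 1, control replicate 2 or acetate replicate 2 (up to 0.0733), and Cxcr6, another (198, 123, 23.9 and 51.5; -1.91), without control replicate 1, control replicate 2 or acetate replicate 1 (up to 0.260). The log2 differences were -0.03 for Tbx21, the factor of Th1 cells, 1.11 for Ifng, 0.31 for Il4 and -0.17 for Il2, and their adjusted p-values lay at 0.561 or above. For Ifng (1058, 971, 3678 and 1526) the pooled spread was wide, with signals from 202 to 3108 on the Th17 arrays. With the 4 Treg arrays fitted alone Ifng passed. Gata3, the factor of Th2 cells, was at 340, 234, 73.8 and 125 and missed the threshold (-1.37 ± 0.45, adjusted p = 0.0616). Its outcome depended on the setting, since it passed with the pseudocount at the 50th percentile and with the 4 Treg arrays alone. Of 13 follicular helper genes 3 rose and 4 fell: Cxcr5, Ascl2 and Tox2 rose, and Pdcd1, Slamf6, Bcl6 and Sh2d1a fell. Without control replicate 1 and without acetate replicate 1, 0 of the 13 passed.

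Genes through which acetate is sensed and used were examined next. Ffar2, the acetate receptor gene, was at 23.3 and 25.9 in the control and at 108 and 187 in the acetate arrays. The log2 difference was 2.65 ± 0.41 (adjusted p = 0.00201), it held without any single array, and the other probe set of the gene gave 2.42. Of the acetate arrays, replicate 2 lay between the 2 Th1 control arrays (201.5 and 156.6) and replicate 1 below both. In Th17 cultures Ffar2 had means of 28.4 without and 27.5 with acetate, a difference of 0.20 after normalization, and the test of Treg against Th17 effects missed the threshold (2.44, adjusted p = 0.0754). Slc16a3, the lactate and proton exporter of glycolytic cells, rose from 119 and 62.7 to 365 and 350 (2.20 ± 0.35, adjusted p = 0.00215) and held without any single array. Acss1 was at 126, 86.8, 34.8 and 38.4 (-1.28, adjusted p = 0.0303), but failed without each of the 4 Treg arrays in turn (0.101 to 0.169), on the signals as deposited (0.0809), without the filter on low signals (0.0620) and with a replicate block (0.0626). Acss2 was at 94.5, 61.4, 71.5 and 70.3, with a difference of 0.12 whose sign changed between settings. These are 2 rises and 1 fall among 14 acetate receptor, transport and activation genes tested.

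Among genes induced by low oxygen, 12 of 28 tested rose. Hypoxia-inducible factors are stabilised when the prolyl hydroxylases Egln1 and Egln3 lack oxygen, bind short motifs with the core ACGTG and induce genes for glucose uptake, glycolysis, mitophagy and collagen modification, the hydroxylase genes included. None of the 28 fell and 16 were not called, 3 of them with negative differences. The median log2 difference was 1.09, and 6.81% of all genes rose. For Bnip3, a mitophagy receptor, the signals were 679 and 334 in the control and 3123 and 2915 in the acetate arrays, a log2 difference of 2.56 ± 0.42 (adjusted p = 0.00252) that held without any single array. The collagen hydroxylase gene P4ha2 (54.8, 17.5, 260 and 293; 3.27), the disulfide oxidase gene Ero1a (598, 356, 2234 and 2105; 2.21), Egln3 (303, 194, 1501 and 1166; 2.48) and Ankrd37 (83.3, 27.9, 324 and 225; 2.64) showed the same pattern. Higd1a, a mitochondrial protein gene, rose by 1.29, and Egln1, Slc2a1, Plod2, Ak4, Car9 and Selenbp1 by 1.16 to 2.27. Hif1a itself (-0.24), Vegfa (0.15) and Pgk1 (0.05) did not pass.

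The hypoxia count was 6, 4, 4 and 6 without control replicate 1, control replicate 2, acetate replicate 1 and acetate replicate 2, and 9 on the signals as deposited. P4ha2 and Ero1a failed without control replicate 2 (adjusted p = 0.0523 and 0.0501), Egln3 without acetate replicate 1 (0.0524), Ankrd37 without either of these (up to 0.0981), and Higd1a when its probe sets were averaged (0.269). Of the others, Car9 failed without control replicate 1, acetate replicate 1 or acetate replicate 2 (up to 0.160), and Egln1, Slc2a1, Plod2, Ak4 and Selenbp1 without each of the 4 Treg arrays in turn (up to 0.144, 0.216, 0.185, 0.199 and 0.179). Selenbp1 also failed without each Th17 control array, without the filter and without a trend (up to 0.0673). On the signals as deposited Car9, Egln1, Plod2 and Ak4 missed the threshold (0.0501 to 0.0734), and as means of their probe sets Plod2 and Ak4 did (0.0586 and 0.132).

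The promoters of Bnip3 and P4ha2 are shown because these members carry the hypoxia motif in the 250 bases before their transcription start. The sequences are from RefSeq (GRCm38.p6), written 5′ to 3′ on the strand of the gene up to the base before the start, with matches to ACGTG on either strand in capitals. The window of Bnip3 is chr7:138909507-138909756 on the minus strand, where a palindrome gives 2 overlapping matches that begin 108 and 107 bases before the start. That of P4ha2 is chr11:54100674-54100923 on the plus strand, with 1 match 78 bases before the start.
Bnip3: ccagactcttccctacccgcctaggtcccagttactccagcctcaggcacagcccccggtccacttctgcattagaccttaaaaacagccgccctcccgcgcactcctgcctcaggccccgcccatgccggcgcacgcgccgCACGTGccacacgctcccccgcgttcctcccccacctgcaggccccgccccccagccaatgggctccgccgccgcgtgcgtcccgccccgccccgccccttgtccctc
P4ha2: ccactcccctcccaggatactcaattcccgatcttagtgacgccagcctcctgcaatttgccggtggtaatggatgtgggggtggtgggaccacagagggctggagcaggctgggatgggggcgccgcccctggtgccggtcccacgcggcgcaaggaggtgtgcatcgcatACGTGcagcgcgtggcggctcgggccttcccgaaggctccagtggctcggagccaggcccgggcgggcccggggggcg
RefSeq windows were found for 8920 of the 10916 genes tested and for 23 of the 28 hypoxia targets, some with several starts. ACGTG was present in 10 of the 14 windows (71.4%) of the hypoxia targets that rose, in 8 of 19 (42.1%) of those not called, in 22.3% of the windows of all genes tested and in 16.6% of all 32851 windows in the table. The 14 windows belong to 11 genes. Over all genes that rose ACGTG was present in 210 of 790 windows (26.6%), and over all that fell in 119 of 677 (17.6%). A match is a description of these letters, and binding was not measured.

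Of 18 glycolysis genes tested, 7 rose and 0 fell, beside 6.81% of all genes that rose, and 11 were not called. All 18 differences were positive, with a median of 0.83, and the count of rises was 5, 4, 5 and 5 with single Treg arrays left out. Hk2, the inducible hexokinase, went from 175 and 113 to 693 and 411 (2.05 ± 0.24, adjusted p = 4.59e-04), and Pgam1, phosphoglycerate mutase, from 1201 and 713 to 3170 and 2901 (1.56 ± 0.19, adjusted p = 4.85e-04). Tpi1, triosephosphate isomerase, rose by 1.06 ± 0.16 (1807, 1087, 3333 and 3374). These 3 and Slc16a3 held without any single array. Pkm (0.72) failed without control replicate 2 (adjusted p = 0.0587), Hk1 (1.02) without each of the 4 Treg arrays in turn (up to 0.0775) and on the signals as deposited (0.0558), and the glucose transporter gene Slc2a1, which is also in the hypoxia list, as given above. Ldha (0.41, adjusted p = 0.0594) and Aldoa (0.32) did not pass. Pcx, pyruvate carboxylase, which refills the citric acid cycle, rose from 44.6 and 45.3 to 196 and 136 (2.05 ± 0.25, adjusted p = 5.24e-04). Of 33 genes of the citric acid cycle and fatty acid oxidation 5 rose and 0 fell, with 2, 2, 2 and 4 rises with single Treg arrays left out: Pdk3, a kinase that inhibits pyruvate dehydrogenase (1.43), held without any single array, and Cs, Suclg1, Acadvl and Sdhc (0.68 to 0.91) did not, each failing without acetate replicate 1 among other arrays (up to 0.133) and on the signals as deposited (0.0921 to 0.345).

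**Figure D3:**
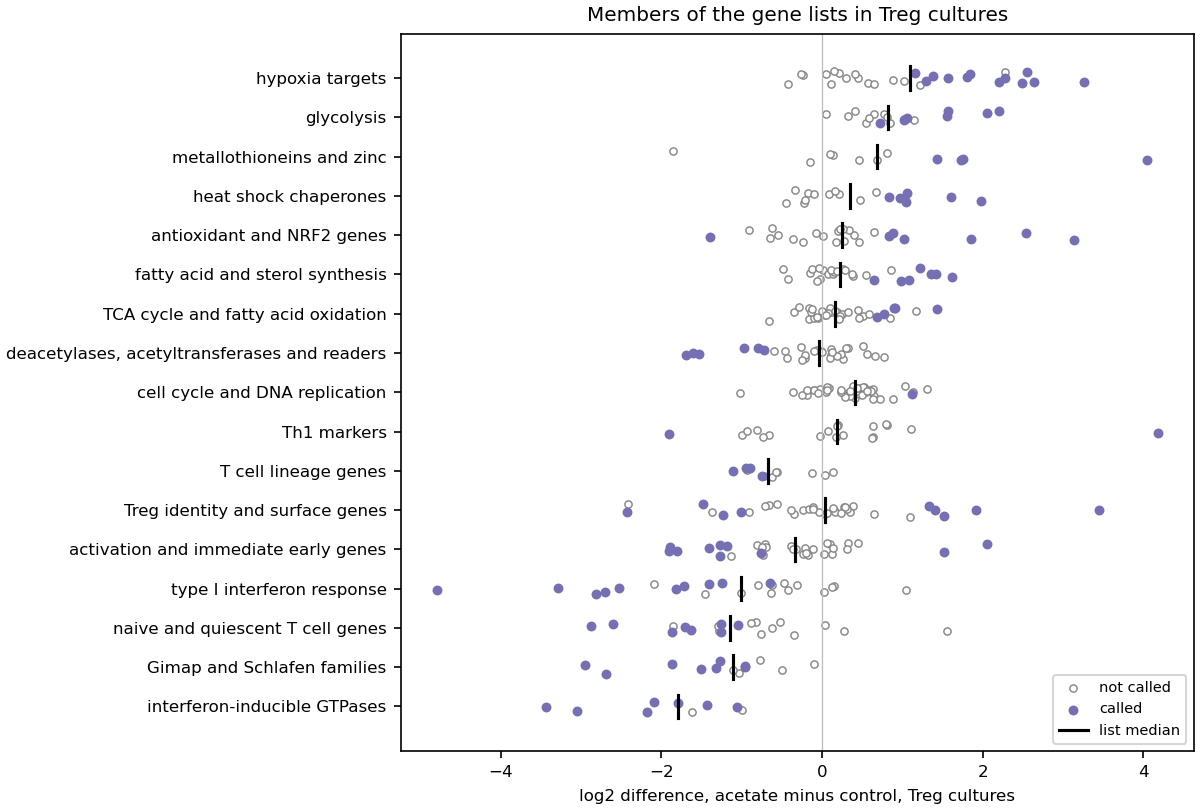
Log2 difference between acetate and control Treg cultures for each member of 17 gene lists, filled where the adjusted p lay under 0.05 and open where not, with a bar at the median of the list. The hypoxia and glycolysis members lie mostly above 0, and those of the interferon, GTPase, Gimap and Schlafen and naive lists mostly below it.

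Among interferon response genes, falls but no rises were called. Type I interferon induces antiviral genes, many of which carry repeats of GAAA spaced by 2 bases in their promoters, and interferon-gamma induces the GTPases of the Irgm and Gbp families, which act on intracellular microbes. Of 23 type I interferon response genes 0 rose and 10 fell, beside 5.61% of all genes that fell. The other 13 were not called, 4 of them with positive differences, and the median was -1.01. Irf7, the factor that amplifies the response, was at 262, 146, 27.4 and 23.9 (-2.70 ± 0.39, adjusted p = 0.00138) and held without any single array, as did Ifit1bl1. Irf1 (1553, 1437, 361 and 581; -1.72), Xaf1 (298, 166, 25.3 and 43.6; -2.53), Ifit2 (119, 100, 19.9 and 33.2; -1.82) and Irf9 (242, 160, 58.6 and 89.1; -1.24) fell too, the last an interferon regulatory factor. Usp18 (115, 108, 58.2 and 104) and Bst2 (393, 272, 365 and 305) did not pass.

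Of the 9 interferon-inducible GTPases 0 rose and 7 fell, and all 9 differences were negative (median -1.79). Irgm1 was at 510, 446, 33.7 and 78.8 (-3.05 ± 0.37, adjusted p = 5.31e-04), and Ifi47 at 1916, 1603, 342 and 436 (-2.18 ± 0.32, adjusted p = 0.00138). Both held without any single array. Iigp1 (1641, 1600, 87.7 and 246), Irgm2 (528, 415, 97.7 and 157), Gbp6, Gbp7 and Igtp (4788, 4124, 2144 and 2364) made up the rest of the 7. In every one of these genes acetate replicate 1 had the lower signal of the acetate pair.

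The type I interferon count was 4, 7, 4 and 7 falls and the GTPase count 4, 3, 2 and 5 without control replicate 1, control replicate 2, acetate replicate 1 and acetate replicate 2. Irf1 and Irgm2 failed without acetate replicate 1 (adjusted p = 0.0544 and 0.0511), Xaf1 and Irf9 without control replicate 1 or acetate replicate 1 (up to 0.0635 and 0.131), Ifit2 without control replicate 2 or acetate replicate 1 (up to 0.0917), and Ifi35 without control replicate 1 or acetate replicate 2 (up to 0.102). Gbp6 failed without control replicate 1, control replicate 2 or acetate replicate 1 (up to 0.262), and Ddx58, Gbp7 and Igtp without each of the 4 Treg arrays in turn (up to 0.113, 0.187 and 0.157). Ifi35 and Igtp failed on the signals as deposited as well (0.242 and 0.126), and Ifi35, Ddx58 and Gbp7 as means of their probe sets (up to 0.0912). The high group of the series was the Treg control: Ifit1bl1 had a mean of 544 (SD 31.4, n = 2) there, against 12.4 (SD 11.1, n = 3) in Th17 and 14.9 (SD 5.19, n = 2) in Th1 control arrays, and Irgm1 478 (SD 45.1) against 180 (SD 112) and 89.9 (SD 4.37).

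The promoters of Ifit3 and Irgm1 are shown for the interferon motif, with each GAAA, any 2 bases and GAAA on either strand in capitals and all else as for Bnip3. The window of Ifit3 is chr19:34583279-34583528 on the plus strand, with matches beginning 156 and 122 bases before the start. That of Irgm1 is chr11:48871421-48871670 on the minus strand, with 2 overlapping matches at 30 and 24 bases.
Ifit3: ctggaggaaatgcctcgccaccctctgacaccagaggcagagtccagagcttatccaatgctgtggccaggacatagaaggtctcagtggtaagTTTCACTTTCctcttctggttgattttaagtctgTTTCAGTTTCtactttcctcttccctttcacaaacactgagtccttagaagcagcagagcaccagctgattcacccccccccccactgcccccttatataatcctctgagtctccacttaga
Irgm1: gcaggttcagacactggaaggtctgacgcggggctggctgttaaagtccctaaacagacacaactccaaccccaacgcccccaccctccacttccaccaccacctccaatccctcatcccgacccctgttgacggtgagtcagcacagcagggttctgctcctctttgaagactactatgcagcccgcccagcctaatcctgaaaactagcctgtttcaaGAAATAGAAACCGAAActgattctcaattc
Windows were found for 25 of the 32 members of the 2 interferon lists. The motif was present in 8 of 19 windows (42.1%) of the members that fell and in 7 of 13 (53.8%) of those not called, against 2.58% of the windows of all genes tested and 2.98% of all windows. Over all genes that fell it was present in 33 of 677 windows (4.87%), and over all that rose in 11 of 790 (1.39%).

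Gimap GTPases support survival of lymphocytes, and Schlafen proteins are linked to T cell quiescence. Of 13 genes of these families tested 0 rose and 8 fell, beside 5.61% of all genes that fell, and 5 were not called. All 13 differences were negative (median -1.11), and the count of falls was 3, 4, 3 and 6 with single Treg arrays left out. Slfn1 was at 550, 537, 43.7 and 91.2, Slfn8 at 262, 157, 18.02 and 39.4, Gimap5 at 199, 149, 71.4 and 49.8 and Gimap8 at 1094, 910, 375 and 441, and Slfn2, Gimap3, Gimap4 and Gimap6 were the others. Gimap7 (1710, 1564, 1532 and 1767) did not pass. Slfn1, Gimap5 and Gimap8 held without any single array. Slfn8 failed without control replicate 1 or acetate replicate 1 (adjusted p up to 0.0914), Slfn2 and Gimap4 without control replicate 1, control replicate 2 or acetate replicate 1 (up to 0.138 and 0.0891), and Gimap3 and Gimap6 without each of the 4 Treg arrays in turn (up to 0.0761 and 0.263). Gimap4 and Gimap6 also failed on the signals as deposited (0.148 and 0.158), and Gimap6 without 6 of the arrays of the other subsets.

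Of 20 genes of naive and quiescent T cells 0 rose and 8 fell, beside 5.61% of all genes that fell. The other 12 were not called, 3 of them with positive differences, and the median was -1.15. Klf2, which controls the exit of T cells from lymph nodes, was at 1208, 1048, 97.9 and 214, and its target S1pr1, the sphingosine phosphate receptor, at 248, 205, 86.4 and 81.5 (-1.25 ± 0.21, adjusted p = 0.00262). Cd27, a costimulatory receptor lost on late effector cells, was at 751, 587, 80.1 and 126 (-2.61 ± 0.30, adjusted p = 4.59e-04), Foxp1 at 1027, 904, 461 and 456, and the antiproliferative gene Btg2 at 828, 847, 223 and 270. S1pr1, Cd27, Foxp1 and Btg2 held without any single array, and the list counted 5, 5, 4 and 7 falls without control replicate 1, control replicate 2, acetate replicate 1 and acetate replicate 2. Slfn2, Lef1 and Id3 were the remaining falls. Lef1, a factor of naive T cells (856, 848, 284 and 420), and Id3 failed without 3 and all 4 of the Treg arrays in turn (adjusted p up to 0.194 and 0.196). Ccr7 (-0.63) and Il7r (-0.76) did not pass.

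Of 32 activation and immediate early genes, which T cell receptor signals induce, 2 rose and 8 fell, beside 6.81% and 5.61% of all genes (median -0.34). The imbalance was smaller with single Treg arrays left out, at 2, 1, 1 and 2 rises against 3, 2, 2 and 2 falls. Nr4a3, a receptor gene induced by antigen signals, was at 658, 451, 146 and 122 (-1.91 ± 0.27, adjusted p = 0.00110) and held without any single array, but not as the mean of its probe sets (0.471). Spry1, Jund, Nr4a1, Egr1, Egr3, Ier2 and Dusp2 were the other falls, with differences from -0.76 to -1.89. Ier3 rose from 364 and 245 to 1419 and 1043 (2.06 ± 0.28, adjusted p = 8.55e-04) and held without any single array.

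Of 11 metallothionein and zinc genes 4 rose and 0 fell (median 0.68). Metallothioneins bind zinc and other metals. Mt1 was at 2927, 2308, 10170 and 9599 (1.73 ± 0.23, adjusted p = 8.55e-04), Mt2 at 2674, 2023, 7247 and 7257 (1.43), Mt3, otherwise known from brain, at 28.8, 16.1, 400 and 295 (4.05), and the zinc importer gene Slc39a14 at 105, 72.8, 277 and 242 (1.75). Mt1, Mt3 and Slc39a14 held without any single array, and Mt2 failed without control replicate 2 or acetate replicate 1 (adjusted p up to 0.0517). The zinc exporter gene Slc30a1, which the metal-responsive factor Mtf1 induces together with Mt1, was at 56.3, 48.5, 6.85 and 17.2 (-1.85 ± 0.65) and missed the threshold (adjusted p = 0.0795).

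Of 24 antioxidant genes 6 rose and 1 fell (median 0.25), with 3, 3, 4 and 3 rises with single Treg arrays left out. The glutathione transferase genes Gstt1 (43.9, 44.2, 206 and 246; 2.54), Gstm5 (19.0, 1.09, 67.2 and 64.2; 3.14) and Gstm1 (20.2, 9.37, 54.8 and 44.9; 1.86) rose and held without any single array. Of 26 genes of fatty acid and sterol synthesis 7 rose and 0 fell (median 0.22). Fdps, Fdft1, Lss, Mvd and Mvk, 5 of the 7, encode enzymes on the path to cholesterol. Fdft1, squalene synthase, went from 223 and 157 to 473 and 441 (1.41 ± 0.25, adjusted p = 0.00367) and held without any single array. The list counted 4, 3, 2 and 4 rises without control replicate 1, control replicate 2, acetate replicate 1 and acetate replicate 2. Acly (0.26), which makes cytosolic acetyl-CoA from citrate, and Fasn (-0.42), fatty acid synthase, did not pass.

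Of 30 deacetylase, acetyltransferase and acetyl-lysine reader genes 0 rose and 6 fell, beside 5.61% of all genes that fell, with a median of -0.04. The count of falls was 2, 2, 2 and 3 with single Treg arrays left out and 2 on the signals as deposited. The acetyltransferase genes Crebbp (303, 197, 56.7 and 77.0; -1.70 ± 0.20, adjusted p = 4.59e-04) and Kat2b (231, 180, 56.3 and 59.6; -1.61 ± 0.28, adjusted p = 0.00336) fell and held without any single array. Brd2, Sirt1, Kat6a and Hdac10 (-0.72 to -1.53) lost their call on the signals as deposited and without at least 3 of the 4 Treg arrays in turn (up to 0.238). Ep300 (-0.07) and Hdac1 (0.33) did not pass. Of 41 cell cycle genes 1, Ccnd3, rose and 0 fell, with 32 of 41 differences positive (median 0.41), and of 31 Myc and ribosome biogenesis genes 0 rose and 1, Mxd4, fell. Myc was at 1335, 1066, 1059 and 1121.

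Among 22 actin, tubulin and related genes 4 rose and 1, Tubb2a, fell. The actin severing protein gene Gsn went from 222 and 161 to 584 and 591 (1.74 ± 0.20, adjusted p = 4.59e-04), and the tropomyosin gene Tpm2 from 11.95 and 3.40 to 55.8 and 44.4 (2.67). Both held without any single array. The leukotriene B4 receptor gene Ltb4r1 (37.8, 14.5, 177 and 174; 2.98 ± 0.46, adjusted p = 0.00189) and the cysteinyl leukotriene receptor gene Cysltr1 (59.0, 25.9, 181 and 116; 2.05 ± 0.35, adjusted p = 0.00301) were the 2 rises among 9 leukotriene and prostaglandin genes, and both held as well. H2-Q10, a nonclassical MHC class I gene with close paralogs whose probes may cross-hybridise, rose from 44.2 and 59.8 to 351 and 350 (2.93 ± 0.25, adjusted p = 7.15e-05).

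The remaining lists were mixed. Of 18 heat shock chaperones 6 rose and 0 fell (median 0.34), among them Hspb1 (78.4, 36.7, 128 and 161; 1.61), but 0 passed on the signals as deposited and 2, 0, 1 and 1 without control replicate 1, control replicate 2, acetate replicate 1 and acetate replicate 2. Of 31 autophagy and lysosome genes 7 rose and 1 fell, beside 6.81% and 5.61% of all genes, but the list had 2, 2, 2 and 3 rises and 0 falls with single Treg arrays left out, and 2 rises and 1 fall on the signals as deposited. Of 22 mTOR and amino acid transport genes 0 rose and 4 fell, with 0 of the latter left without control replicate 2 or acetate replicate 1. Of 25 TGF-beta receptor, Smad and target genes 3 rose and 2 fell, with a median of -0.01, and 0, 1, 0 and 1 rises and 1, 1, 1 and 2 falls with single Treg arrays left out. Tgif1, a corepressor of Smad proteins, fell from 195 and 156 to 45.4 and 57.0 (-1.56 ± 0.25, adjusted p = 0.00215) and held without any single array. Of 21 genes of IL-2 receptor and STAT5 signalling 2 rose and 3 fell, but 0 of the 21 were called without control replicate 2 and 1 or 2 without any other Treg array. Of 22 TNF receptor and ligand genes 2 rose and 3 fell, beside 6.81% and 5.61% of all genes. Among 20 apoptosis genes Bnip3 rose, and Bbc3, Mcl1 and Xiap fell. Xiap, an inhibitor of caspases (279, 193, 95.9 and 97.7; -1.09), held without any single array but not as the mean of its probe sets.

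Markers of other cells moved in a few cases. Among B cell genes on the array the summed signals were 2307, 2205, 843 and 1495, most of it Ighm, and of 3 tested 1, Ebf1, rose (0.644, 1.76, 23.2 and 12.1), while Ms4a1 and Cd79a were near the floor. The summed signal of macrophage and dendritic cell genes was 664, 496, 1140 and 1165. Of 6 of these tested 1, H2-Aa, rose (26.2, 23.8, 93.1 and 123), Cd74 was at 471, 316, 846 and 820, and Lyz2, Cd14 and Itgam were near the floor. The sum for CD8 T and NK cell genes was 2037, 1278, 922 and 1070, with 0 of 4 tested called, and that for mast cells and granulocytes 113, 173, 99.6 and 107, with 0 of 4. For red cells, platelets and stroma it was 273, 242, 211 and 229, with 1 of 5, Krt18, called. Of 12 T cell lineage genes 0 rose and 4 (Ptprc, Cd5, Cd3e and Cd247) fell by 0.75 to 1.11 on the log2 scale, and their summed signal was 25970, 23410, 16950 and 18590. These 4 genes lost their calls without acetate replicate 1. Ebf1 failed without control replicate 1, control replicate 2 or acetate replicate 1 (adjusted p up to 0.168), and H2-Aa without control replicate 1 or acetate replicate 2 (up to 0.0581). Krt18, a keratin of epithelial cells (10.53, 4.58, 34.98 and 60.2; 2.51), held without any single array. The part of these changes in the results above was not tested.

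The same genes were then compared with the acetate effects in the Th17 and Th1 cultures, whose log2 differences are taken between other arrays. The normalization, the filter and the estimate of the spread were common to all 14 arrays, so calls in different subsets are not independent. Without Th17 control replicate 3, for example, the count of called Treg genes was 1118 rather than 1355. Of the 743 genes that rose in Treg cultures, 677 (91.1%) had a positive difference in Th17 and 576 (77.5%) in Th1 cultures, beside 49.9% and 51.0% of all genes tested. Of the 612 that fell, 561 (91.7%) were negative in Th17 and 550 (89.9%) in Th1 cultures, beside 50.1% and 49.0%. Between acetate and control arrays 20.3% of genes tested were called in Th17 cultures (11.5% higher, 8.81% lower) and 3.98% in Th1 cultures (2.02% higher, 1.96% lower). Rises called in both Treg and Th17 cultures numbered 441, which is 59.4% of the Treg and 35.1% of the 1255 Th17 rises, and falls 322 (52.6% of the Treg and 33.5% of the 962 Th17 falls). With Th1 cultures 103 rises (13.9% of the Treg and 46.6% of the 221 Th1 rises) and 117 falls (19.1% and 54.7% of 214) were shared. Calls in the opposite direction numbered 6 and 6 in Th17 and 2 and 1 in Th1 cultures. Mt3, for example, rose by 4.05, 4.56 and 4.28 in Treg, Th17 and Th1 cultures, Klf2 fell by 2.88, 2.54 and 2.45 on the log2 scale, and Slfn1 by 2.95, 1.98 and 1.73.

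The difference between the effects was tested gene by gene in the same fit. Between Treg and Th17 cultures 51 genes differed (0.467% of genes tested), 31 with the higher value in Treg cultures (0.284%) and 20 with the lower (0.183%). Between Treg and Th1 cultures 68 did (0.623%), 52 higher (0.476%) and 16 lower (0.147%). The 2 counts were 23 and 22 with Treg control replicate 1 left out, 10 and 8 with Treg control replicate 2, 8 and 1 with Treg acetate replicate 1 and 32 and 16 with Treg acetate replicate 2. The effect on Il24 was larger in Treg cultures by a log2 of 4.57 ± 0.56 than in Th17 (adjusted p = 0.00329) and by 6.50 ± 0.62 than in Th1 cultures (adjusted p = 9.81e-04), and both differences held without any single array and under every other setting tried. For Enah, an actin regulator, Treg cultures rose (82.7, 41.2, 180 and 180) while Th17 cultures fell from 715 to 184 (difference 3.44 ± 0.37, adjusted p = 0.00293). Cysltr1 likewise rose in Treg cultures and fell in Th17 (1411 to 362) and Th1 cultures (189 to 64.3), with differences of 3.80 ± 0.45 (adjusted p = 0.00329) and 3.77 ± 0.50 (adjusted p = 0.0119), the latter lost without Treg acetate replicate 1. Ms4a4b, a T cell surface gene, fell in Treg cultures (4526, 3365, 1006 and 1336) and rose in Th17 (632 to 1120; difference -3.01 ± 0.34, adjusted p = 0.00293), and Ift80, a gene of intraflagellar transport, fell in Treg cultures (205, 164, 43.3 and 50.3) and rose in Th17 (59.1 to 71.5; difference -2.37 ± 0.27, adjusted p = 0.00293). Enah, Ms4a4b, Ift80, Cysltr1 and Fam217b (2.63 ± 0.36, adjusted p = 0.00799) held against Th17 cultures without any single array and under every other setting tried.

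**Figure D4:**
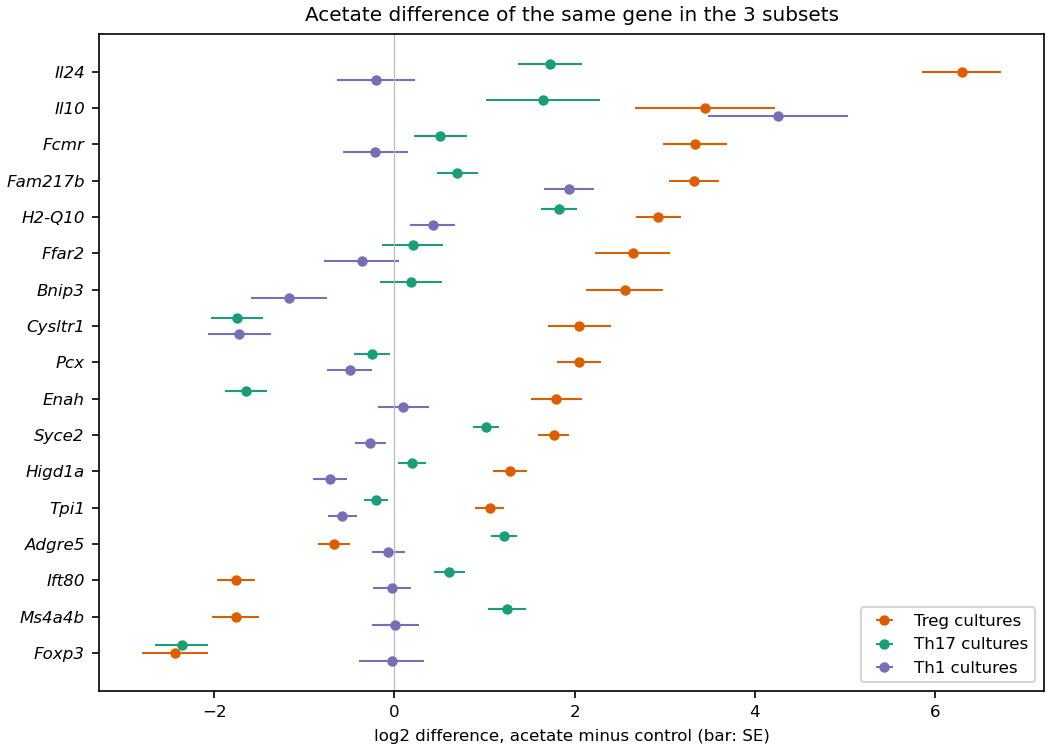
Log2 difference of acetate minus control with its SE in Treg, Th17 and Th1 cultures for the genes with the smallest p-values for a difference between subsets, and for Bnip3, Ffar2, Foxp3 and Il10. Enah and Cysltr1 lie above 0 in Treg and below 0 in Th17 cultures, and Ms4a4b and Ift80 the other way round.

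Hypoxia and glycolysis genes were then set side by side across the subsets. The median over the hypoxia targets was 1.09 in Treg, -0.20 in Th17 and -1.02 in Th1 cultures, and over the glycolysis genes 0.83, 0.02 and -0.22. Between Treg and Th1 cultures 7 of the 28 hypoxia targets differed (Bnip3, Egln1, Egln3, Ero1a, Higd1a, P4ha2 and Selenbp1), and between Treg and Th17 cultures 0 of 28 did. For Bnip3 the difference from Th1 was 3.72 ± 0.60 (adjusted p = 0.0201), with means of 506 and 3019 in Treg control and acetate, 3041 and 3250 in Th17 and 1655 and 1022 in Th1 arrays. Each of the 7 lost its call without at least 1 array: Higd1a failed without Treg acetate replicate 1, with averaged probe sets and on the signals as deposited (adjusted p up to 0.134), and the other 6 without Treg control replicate 2, Treg acetate replicate 1, Treg acetate replicate 2 or Th1 control replicate 2 (up to 0.188). Tpi1, Pfkl and Hk2 differed from Th17, and Tpi1, Pfkl and Pgam1 from Th1 cultures, by 1.26 to 2.01. Each of these also lost its call without Treg control replicate 2 or Treg acetate replicate 1 (up to 0.254). The Treg control arrays enter every one of these differences, and of the 3 control groups the 7 hypoxia targets were lowest there: Egln3, for example, had control means of 248.6 in Treg, 2980 in Th17 and 1443 in Th1 cultures.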

How the data were processed

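Affymetrix Mouse 430 2.0 arrays measured total RNA of CD4+ T cell cultures. The deposited intensity values are linear MAS5 signals, per the submitters' processing notes, with 1 value per probe set and array. The MAS5 version and any scaling target are not given in those notes or the labels. MAS5 derives each signal from 1 array alone, and low MAS5 signals scatter widely. Of 45101 probe sets, 34945 carried exactly 1 gene symbol, 932 several and 9224 were unnamed or array controls; symbols came from the platform annotation, and 34741 of the named probe sets matched RefSeq by Entrez identifier.

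Signals were turned to log2(signal + 3) and quantile normalized across the 14 arrays. The probe set with the highest mean of each of 18193 genes was kept, and the 10916 genes at or above the 40th percentile (a signal of about 9.10) were tested with limma 3.58.1 in R 4.3.3 (lmFit on 6 group means, eBayes with trend, 8 residual degrees of freedom), with Benjamini-Hochberg adjustment over all of them; genes under an adjusted p of 0.05 are called. The percentile was taken over the genes' means across all 14 arrays, so the groups compared also decided which genes were tested. Every adjusted p is limma's. The array number limits precision. The 10 other arrays enter the estimate of the spread and the comparison of effects.

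Named genes are the 15 largest called differences in each direction, a short list given whatever its result (Foxp3, Il24, Il10, Bnip3, Ffar2, Acss1, Acss2, Il2, Il4, Ifng, Tbx21, Gata3 and Il17a), the 8 smallest p-values of each difference between subsets, up to 5 members a gene list and the markers of other cells. Further list members were chosen after their values were seen. The members and lists were chosen with earlier results of these data known. Alternatives were the signals as deposited or with medians subtracted, other pseudocounts, no filter, averaged or separate probe sets, no trend, a replicate block, the Treg arrays alone and each array left out.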

Additional observations from a re-analysis of the deposited data

Results flagged for a closer look

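The effect of acetate differed between Treg cultures and another subset, by limma's test of the difference, in the following genes. All values are Treg minus other effect on the log2 scale, after quantile normalization.

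Against Th17 cultures, the Treg effect was higher for Il24 by 4.57, for Cysltr1 by 3.80, for Enah by 3.44, for Fcmr by 2.83, for Fam217b by 2.63, for Pcx by 2.30 and for Tpi1 by 1.26. It was lower for Ifit1bl1 (-3.79), Ms4a4b (-3.01), Ift80 (-2.37) and Adgre5 (-1.89). Il24, Cysltr1, Enah, Fam217b, Ms4a4b and Ift80 kept this call under every setting run and without any single array. Adgre5, a surface receptor of leukocytes, lost it on the signals as deposited (adjusted p = 0.0896), and Pcx without Treg acetate replicate 1 (0.0926). Fcmr, Tpi1 and Ifit1bl1 lost it without several arrays (up to 0.121, 0.121 and 0.263), and Tpi1 and Ifit1bl1 under other settings too.

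Against Th1 cultures, the Treg effect was higher for Il24 by 6.50, for Hlx by 4.30, for Dpf1 by 3.90, for Ermn by 3.82, for Cysltr1 by 3.77, for Bnip3 by 3.72, for Fcmr by 3.54, for Ffar2 by 3.01, for Pcx by 2.55, for H2-Q10 by 2.50, for Syce2 by 2.04, for Higd1a by 2.00 and for Tpi1 by 1.64. It was lower for Bambi-ps1 (-3.48), Irgm1 (-2.72) and Ift80 (-1.73). Of these only Il24 kept the call without any single array. The call of each of the others was lost without Treg acetate replicate 1.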

How the results depend on the processing

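The Treg count of 1355 called genes (743 higher, 612 lower) was 550 (252 higher, 298 lower) on the signals as deposited, with 546 genes shared, and 2909 with the 4 Treg arrays alone. It ranged from 351 to 1628 with single arrays left out. The 51 differences from Th17 were 29 without a trend and 8 to 101 with single arrays left out. The 68 differences from Th1 were 35 on the signals as deposited, 45 with averaged probe sets, 16 without a trend and 1 to 312 with single arrays left out. The cause was not tested. The replicate numbers only share a number (correlation of same-numbered deviations 0.063): with a replicate block the counts were 949, 52 and 62. Of 206 genes followed through all settings 200 were called, and 67 of these kept the call without any single array. All 4 genes whose sign changed, Acss2, Il2, Il4 and Tbx21, were not called. Acss2 was -0.10 on the signals as deposited and -0.01 with averaged probe sets, and ranged from -0.01 to 0.25 with single arrays left out. Likewise Il2 ranged from -0.48 to 0.14, Il4 from -0.28 to 0.90 and Tbx21 from -0.26 to 0.20. With 2 arrays a group, and with 85 risen genes below the filter level in the control arrays, sizes at low signals are imprecise.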
